A study of Mus musculus with 2 samples.

Results

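Wnt genes were described here in cells of mouse knee joints. The set was chosen by gene symbol from the deposited matrix: every symbol starting with Wnt, Fzd, Sfrp, Dkk or Rspo and a digit, together with Frzb, Wif1, Sost, Lrp5, Lrp6, Notum and Axin2. This gave 50 of 32285 genes, of which 48 are protein-coding and the other 2, Fzd10os and Rspo4os, are transcripts whose symbols the pattern also took. By role they were 19 Wnt ligands, 12 receptors (the Fzd genes, Lrp5 and Lrp6), 4 R-spondin agonists, 12 secreted inhibitors and the feedback target Axin2.

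Wnt proteins are secreted lipid-modified signals that bind Frizzled receptors, encoded by the Fzd genes, with Lrp5 or Lrp6 as co-receptors in the β-catenin branch of the pathway. R-spondins raise the number of receptors at the cell surface. Sfrp proteins, Frzb and Wif1 bind Wnt ligands outside the cell, Dkk1, Dkk2 and Sost act on the co-receptors, and Notum removes the lipid that the ligand needs. In limb development this pathway is known for its parts in joint formation, in bone formation and in holding back cartilage fate.

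The data are single-cell RNA counts of hindlimb knee joints from mice of both sexes at postnatal day 7, freed with collagenase II (4 mg/mL) over 6 h. One group was wild type and the other lacked Col12a1, which encodes the fibril-associated collagen XII; no strain, allele or transgene is given for either group, and no treatment apart from the digestion. The labels describe 3 libraries per genotype, 1 from a first and 2 from a second experiment. In the merged matrix each barcode ends in 1 or 2, and no label ties these barcode sets 1 and 2 to a genotype or a library, so that wild type and knockout were not compared and all levels describe cells of both genotypes together.

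A cell was kept if it had 500 genes or more, 1000 UMIs or more (unique molecular identifiers, each 1 counted transcript) and no more than 10% mitochondrial UMIs. This left 15174 cells. Set 1 held 7160 of them, at a median depth of 10964 UMIs, and set 2 held 8014, at 9623 UMIs. The 2 sets shared 40 barcode sequences, 14 of them among kept cells. Cells were clustered without the Wnt genes and without 55 other genes of the pathway, and clusters were named from marker genes. The connective tissue populations were 1399 chondrocyte-like cells (clusters 3 and 13), 361 osteoblast-like cells (cluster 17), 802 tenocyte-like or ligament cell-like cells (cluster 5), 155 synovial lining fibroblast-like cells (cluster 25) and 2914 fibroblast-like cells (clusters 0, 2 and 9). Cluster 1, with 1108 cells led by Il1rl1, Sfrp4, Nptx1, Twist2 and Pcdh7, stayed unnamed. Leading genes were Bglap, Ibsp and Alpl in osteoblast-like and Tnmd, Kera and Scx in tenocyte-like or ligament cell-like cells. They were Htra4, Clic5 and Prg4 in synovial lining fibroblast-like and Matn1, Col9a3 and Col2a1 in cluster 3 cells. Most of these are markers by which the clusters were named, so they do not test the names. The top 10 genes of fibroblast-like clusters 0 and 9 and of chondrocyte-like cluster 13 held no marker of their class. Immediate early and heat shock genes (Gadd45g, Fos, Hspa1a) were among the leading genes of fibroblast-like cluster 9. Blood cell-like populations (neutrophil-like, granulocyte progenitor-like, erythroid-like and B cell-like) served as cells in which most of these genes should be absent.

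Promoter sequences are shown first for 3 members that mark the main patterns: Wnt11, a ligand of fibroblast-like cells, Axin2, the feedback gene that β-catenin with TCF and LEF factors is known to switch on, and Wif1, the leading inhibitor of chondrocyte-like and tenocyte-like cells. Each runs from 250 bases before to 50 bases after the gene's start in RefSeq (build GRCm38.p6), 5′ to 3′ on the gene's strand, and capitals mark ATCAAAG or CTTTGAT, the 2 orientations of a TCF and LEF type motif.
Wnt11 (chr7:98834862-98835161, plus strand): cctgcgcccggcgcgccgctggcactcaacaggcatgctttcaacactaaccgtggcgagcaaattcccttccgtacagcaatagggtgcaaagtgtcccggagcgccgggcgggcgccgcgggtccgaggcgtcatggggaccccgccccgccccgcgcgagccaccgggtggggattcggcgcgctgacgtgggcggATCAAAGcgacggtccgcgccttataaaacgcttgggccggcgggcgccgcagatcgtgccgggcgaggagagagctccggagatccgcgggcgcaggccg
Axin2 (chr11:108920099-108920398, plus strand): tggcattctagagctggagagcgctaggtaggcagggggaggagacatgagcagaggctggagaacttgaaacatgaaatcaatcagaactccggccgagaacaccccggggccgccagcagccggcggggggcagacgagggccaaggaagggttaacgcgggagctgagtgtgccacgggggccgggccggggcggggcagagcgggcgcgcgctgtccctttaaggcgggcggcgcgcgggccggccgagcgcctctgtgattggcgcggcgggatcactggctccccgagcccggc
Wif1 (chr10:121033754-121034053, plus strand): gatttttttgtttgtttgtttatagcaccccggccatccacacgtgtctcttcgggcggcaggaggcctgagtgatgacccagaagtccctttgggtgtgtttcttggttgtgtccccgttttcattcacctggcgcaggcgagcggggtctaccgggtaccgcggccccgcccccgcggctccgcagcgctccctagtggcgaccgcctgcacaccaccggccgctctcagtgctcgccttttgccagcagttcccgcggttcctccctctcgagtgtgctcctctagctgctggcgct
The motif was found in the Wnt11 window, where its first base lies 51 bases before the start, at position -51. With 1 window per gene, this was 1 of 31 members' windows (3.23%). The table holds further windows, at other starts, for some of these members, and of all 34 windows 2 held the motif (5.88%), the second being a window of Wnt5b at chr6:119449337-119449636 (minus strand), with the first base at position -71. Of all 32851 promoter windows in the table, 1225 (3.73%) held it, so that the members' share was below or above that of all windows depending on which of their windows are counted. The shorter core CAAAG or CTTTG, which is part of the motif, was in 14 of the 31 windows (45.2%), in 15 of the 34 (44.1%) and in 53.9% of all windows. A match of letters is not evidence of binding, and its absence says only that the letters are not in that window.

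Of the 50 members, 36 had at least 100 UMIs in kept cells and were compared between populations. Of these, 2 genes, Rspo1 (235 of 327 UMIs in fibroblast-like cells) and Wnt7b (52 of 115 in osteoblast-like cells), had fewer than 100 UMIs outside the population where they were highest. The members under 100 UMIs were Wnt1 with 91 UMIs, Wnt10a with 70, Dkk1 with 56, Fzd10 with 51, Wnt3a with 38, Sost with 25, Rspo4 with 19 and Wnt8b with 13. Wnt7a had 4 UMIs, Wnt3, Wnt8a and Dkk4 had 3 each, Wnt9b had 2 and Rspo4os had 1. Dkk1 and Sost, the inhibitors best known from bone, were therefore too sparse for any comparison.

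Levels are UMIs summed over a population per 1000000 UMIs of that population (CPM), from 3′ counts that are not divided by gene length. Ranges in parentheses after a level are exact 95% Poisson intervals, paired values are those of barcode sets 1 and 2, and a level with neither is over both sets. A gene was called higher in a population at 100 or more UMIs in all, a ratio to all other kept cells of at least 2, a 95% interval of that ratio that leaves out 1, and a ratio on the same side of 1 in each set. A gene was called lower by the same rule at a ratio of at most 0.5. The intervals stand for the error of counting alone. As cells of 1 matrix are no replicates, no p-value is given. Each call compares populations within 1 matrix, not conditions. Genes other than the Wnt and pathway genes took part in clustering, so the share of all genes called, given beside each count, describes the populations and is not a like-for-like control.

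**Figure D1:**
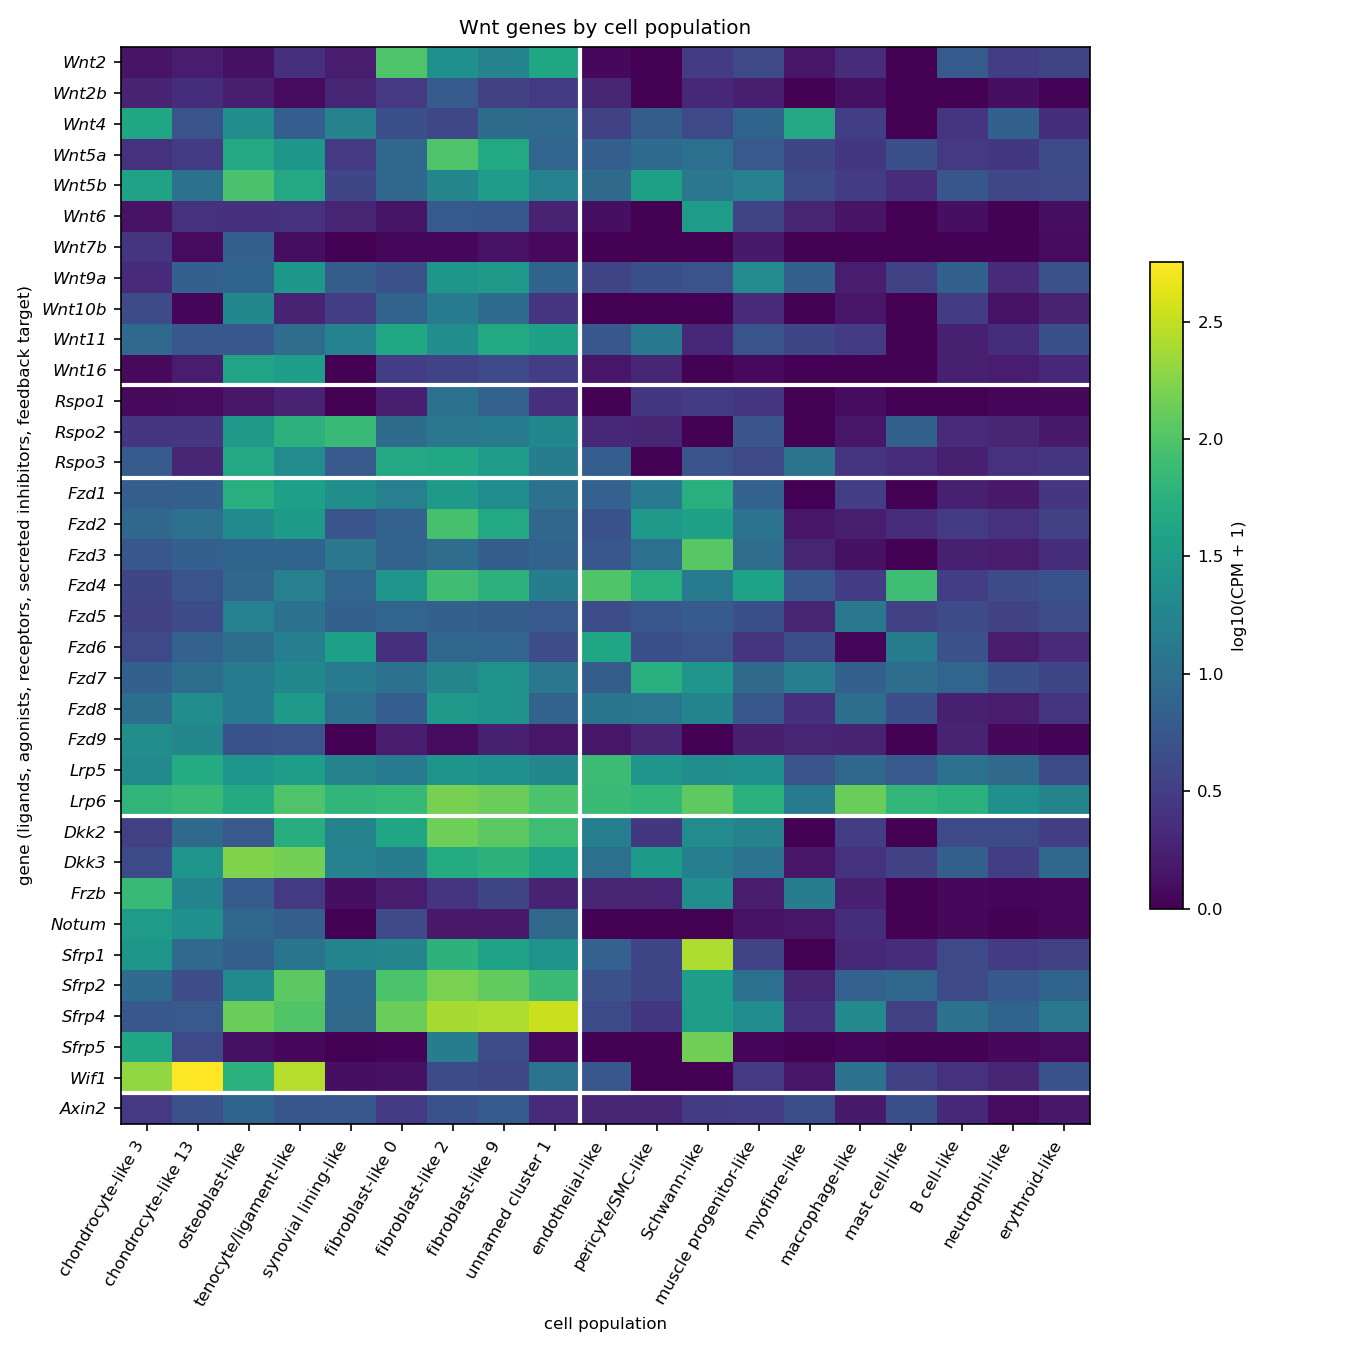
Level of each tested gene except Fzd10os (rows, by role) in each connective tissue cluster and in 10 other populations (columns), as log10(CPM + 1) over both barcode sets. Wif1 is brightest in chondrocyte-like cluster 13 at 565 CPM, Wnt2 in fibroblast-like cluster 0 and Wnt5a in fibroblast-like cluster 2, while the blood cell-like columns are mostly dark, with Lrp6, Lrp5 and Sfrp4 the members above 5 CPM in these populations pooled.

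The highest level of most tested members lay in a connective tissue population. The share of all genes with a peak there was not computed, so this does not set the members apart from genes at large. Of the 36, 25 had their highest level in a connective tissue population: 10 in osteoblast-like, 7 in fibroblast-like, 4 in chondrocyte-like, 2 in tenocyte-like or ligament cell-like and 1 in synovial lining fibroblast-like cells, and 1 in unnamed cluster 1. Another 4 were highest in Schwann-like cells, 3 in endothelial-like, 2 in skeletal myofibre-like and 1 each in macrophage-like and pericyte-like or smooth muscle cell-like cells. The population with the highest level was the same in both barcode sets for 25 of the 36. Of the genes highest in osteoblast-like cells, Wnt5a, Rspo3, Fzd1, Dkk3 and Axin2 were highest in another population in 1 set. In the blood cell-like populations pooled, members lay between 0.0834 and 26.8 CPM with a median of 1.59, and 33 of 36 were under 5 CPM. The 3 above were the co-receptors Lrp6 at 26.8 CPM and Lrp5 at 8.61 CPM, and Sfrp4 at 9.55 CPM.

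Ligands were highest in osteoblast-like cells. Their summed level was 237 CPM (227 to 248) there, with 233 in set 1 and 245 in set 2, against 192 CPM in fibroblast-like cells. Tenocyte-like or ligament cell-like cells followed at 155 CPM, then cluster 1 at 122 CPM and chondrocyte-like cells at 73.9 CPM, with 46.3 CPM in the synovial lining. Neutrophil-like cells had 17.2 CPM. After every cell was thinned to 2000 UMIs, 38.2% of osteoblast-like cells (33.1 to 43.5, exact Clopper-Pearson interval) had a ligand UMI, against 23.3% of tenocyte-like or ligament cell-like, 10.8% of chondrocyte-like and 2.19% of neutrophil-like cells. Without thinning these shares were 87.3%, 69.2%, 41.4% and 7.16%. Median depths were 17734 UMIs in osteoblast-like and 6832 in neutrophil-like cells. The order of the populations was the same by level and by thinned share.

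**Figure D2:**
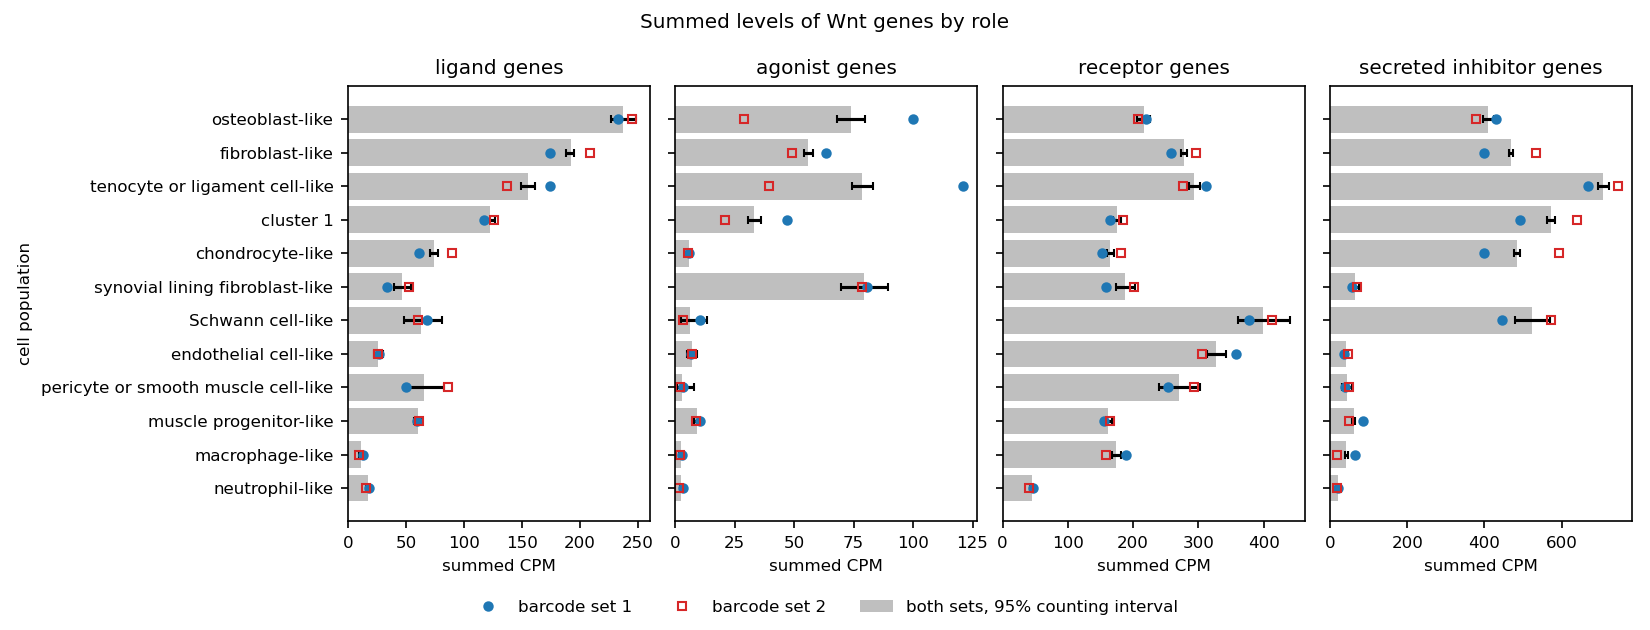
Summed CPM of the genes of each role (panels) in 12 populations (rows). Grey bars give both sets with 95% counting intervals, and points give each barcode set. Ligands were highest in osteoblast-like cells, agonists in synovial, tenocyte-like and osteoblast-like cells with set 1 above set 2 in the last 2, receptors in Schwann-like cells and secreted inhibitors in tenocyte-like or ligament cell-like cells.

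Of the 11 tested ligands, 6 were called higher in osteoblast-like cells and 2 lower. Across all roles 11 of 36 members were called higher there, where 6.63% of all 16900 genes tested were called higher and 20.5% lower. Wnt5b (chr6:119432531-119544347, minus strand), a ligand of β-catenin-independent signalling, led with 91.3 CPM (85.2 in set 1 and 102 in set 2), a ratio of 6.14 (5.67 to 6.64). Both sets were high, and the tenocyte-like or ligament cell-like level that followed was 44.7 CPM. Wnt16 (chr6:22288227-22298522, plus strand), a ligand known to affect cortical bone thickness, was at 39.9 CPM in osteoblast-like cells (42.9 and 34.8) and at 34.3 CPM in tenocyte-like or ligament cell-like cells (39.7 and 29.3). Its ratios were 10.9 (9.59 to 12.4) and 11.8 (10.5 to 13.3), and the next population had 2.52 CPM. Osteoblast-like cells held 31.4% and tenocyte-like or ligament cell-like cells 47.2% of all Wnt16 UMIs, and the levels of the sets overlapped between them. Wnt7b was 19.7-fold higher at 5.98 CPM (6.57 and 4.98), Wnt10b, a ligand that favours bone over fat formation, 5.98-fold at 18.4 CPM (13.7 and 26.4), Wnt5a 3.02-fold at 44.6 CPM and Wnt4 2.64-fold at 21.7 CPM. With either barcode set left out, Wnt7b fell under 100 UMIs and was not compared.

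Fibroblast-like cells held a different group of ligands. There 15 of 36 members were called higher against 8.55% of all genes, among them 7 of 11 ligands, and without cluster 9 the count was 13. Wnt2 (chr6:17988940-18030585, minus strand), a ligand of β-catenin signalling, was at 60.8 CPM with 59.7 in set 1 and 61.9 in set 2, a ratio of 10.3 (9.60 to 11.1). Cluster 1 followed at 41.6 CPM (46.1 and 37.7), and every other population was at or below 4.95 CPM, the level in B cell-like cells. Wnt11 (chr7:98835112-98855195, plus strand), a ligand of planar polarity signalling, was 4.75-fold higher at 37.3 CPM in fibroblast-like cells (31.4 and 42.9) and 2.71-fold higher at 36.4 CPM in cluster 1 (29.4 and 42.6). The 2 populations did not differ in Wnt11 beyond their intervals of 35.7 to 38.9 and 33.6 to 39.4. Wnt5a was 5.18-fold higher in fibroblast-like cells at 40.3 CPM (35.3 and 45.1), Wnt10b 4.17-fold at 8.57 CPM, and Wnt2b 4.43-fold at 2.91 CPM. Wnt6 was 2.37-fold higher at 2.59 CPM, with ratios of 4.10 in set 1 and 1.35 in set 2, and Wnt9a 2.04-fold at 15.8 CPM. Both of these last calls were close to the threshold: they were lost in 7 and 9 of the alternative settings, and with the populations weighted equally Wnt6 was not higher in fibroblast-like cells.

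Wnt4 and Wnt9a were spread over other cells. Wnt4 (chr4:137277489-137299726, plus strand) had 44.4 CPM in skeletal myofibre-like cells (46.1 and 43.3) and 27.7 CPM in chondrocyte-like cells (20.8 and 36.3), ratios of 5.28 and 4.53. Wnt9a (chr11:59306928-59333552, plus strand), known for its part in joint formation, had 28.7 CPM in tenocyte-like or ligament cell-like cells (28.1 and 29.3), a ratio of 3.45, and 20.1 CPM in muscle progenitor-like cells, a ratio of 2.28. The muscle progenitor-like level was largely that of cluster 18, led by Myog, at 52.2 CPM (45.6 to 59.4). Wnt9a was the only member called higher in muscle progenitor-like cells, where 12.9% of all genes were; between 2 and 4 members were in 7 alternative settings. In Schwann-like cells Wnt6 reached 31.7 CPM (21.5 to 44.9), 23.7-fold above the rest, from 31 UMIs in 84 cells.

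Genes needed to make and release Wnt ligands moved with the osteoblast-like population. Wls, the carrier that brings Wnt proteins to the cell surface, had 293 CPM in osteoblast-like cells (341 in set 1 and 211 in set 2), a ratio of 3.79 (3.63 to 3.95). Its level was 172 CPM in tenocyte-like or ligament cell-like, 142 in synovial lining fibroblast-like, 106 in fibroblast-like and 59.0 CPM in chondrocyte-like cells. Porcn, the enzyme that adds the lipid to Wnt proteins, was 4.57-fold higher in osteoblast-like cells at 12.1 CPM (11.9 and 12.4) and at most 4.67 CPM in the other connective tissue populations. The population with the highest summed ligand level was therefore also the one with the highest level of both genes among connective tissue populations.

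R-spondins were divided between populations by gene. Rspo2 (chr15:43020794-43170826, minus strand) was highest in synovial lining fibroblast-like cells at 72.8 CPM (76.9 in set 1 and 70.7 in set 2), a ratio of 7.15 (6.23 to 8.18). Tenocyte-like or ligament cell-like cells followed at 57.1 CPM, but with 91.7 in set 1 and 25.5 in set 2, a ratio of 7.47 over both sets. The order of these populations thus differed between the sets. Rspo3 (chr10:29452416-29535867, minus strand) was at 44.3 CPM in osteoblast-like cells (56.4 and 23.6), 2.94-fold higher, and at 41.5 CPM in fibroblast-like cells (44.7 and 38.5), 5.37-fold higher. Without set 1 the osteoblast-like call of Rspo3 was lost, at a log2 ratio of 0.77. Rspo1 was 7.59-fold higher in fibroblast-like cells at 4.32 CPM (5.89 and 2.84). Chondrocyte-like cells had all 3 tested R-spondins called lower, where 31.1% of all genes were, and a summed agonist level of 5.56 CPM (4.71 to 6.53), close to the 6.13 CPM of Schwann-like and 6.89 CPM of endothelial-like cells.

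Some R-spondin levels rested on few cells, which the counting intervals do not cover. In fibroblast-like cells 10 of 2914 cells held 59.1% of the Rspo1 UMIs. In osteoblast-like cells 10 of 361 cells held 69.8% of the Rspo2 UMIs, with 89 of 252 in a single cell, and 51.2% of the Rspo3 UMIs, with 85 of 385 in a single cell. In synovial lining fibroblast-like cells 10 of 155 cells held 59.4% of the Rspo2 UMIs, and 48 cells had at least 1. For comparison, 10 cells held 6.78% of the Wnt2 UMIs of fibroblast-like cells and 20.5% of the Dkk3 UMIs of osteoblast-like cells. The populations with most UMIs of Rspo3 and Rspo2 were fibroblast-like (64.3%) and tenocyte-like or ligament cell-like cells (36.1%). Without thinning, 26.3% and 22.4% of their cells had a UMI of the respective gene, against 30.3% of fibroblast-like cells for Wnt2.

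Summed receptor levels were spread more evenly than summed ligand levels, but Lrp6 was the leading gene of the sum in most populations. It made up 77.0% of it in macrophage-like cells, 53.1% in cluster 1 and 37.8% in fibroblast-like cells. Single Fzd genes were not spread evenly, as given below. Lrp6, the co-receptor, was the only tested member called higher in no population, with levels from 12.7 CPM in skeletal myofibre-like to 134 CPM in macrophage-like cells (148 and 120). Summed receptor levels were 399 CPM in Schwann-like (361 to 441), 327 in endothelial-like, 293 in tenocyte-like or ligament cell-like, 278 in fibroblast-like, 216 in osteoblast-like and 165 CPM in chondrocyte-like cells. Among blood cell-like populations B cell-like cells had 88.2 CPM (81.3 to 95.5), granulocyte progenitor-like cells 68.7, neutrophil-like cells 44.3 and erythroid-like cells 37.6 CPM. Summed receptor levels of the 6 populations named first were thus above each of these, by less than 2-fold between chondrocyte-like and B cell-like cells, and the Fzd genes that stood out differed among them.

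Fzd4 (chr7:89404355-89413134, plus strand), the receptor of retinal vessel growth, was called higher in endothelial-like cells with 108 CPM in set 1 and 94.9 in set 2, a ratio of 4.91 (4.52 to 5.34). It was also called higher in mast cell-like (78.1 CPM), pericyte-like or smooth muscle cell-like (53.8 CPM, with 33.8 and 80.0) and fibroblast-like cells (47.7 CPM). Fzd6 (chr15:39006034-39038188, plus strand), a planar polarity receptor, was 9.36-fold higher in endothelial-like cells at 41.7 CPM (36.1 and 46.1) and 6.74-fold higher in synovial lining fibroblast-like cells at 34.4 CPM (37.1 and 33.0). The 2 populations overlapped between the sets, and tenocyte-like or ligament cell-like cells followed at 14.5 CPM. Lrp5 was 4.10-fold higher in endothelial-like cells at 75.7 CPM, with 105 in set 1 and 52.5 in set 2. A single cell held 158 of the 483 Lrp5 UMIs there. These 3 were the only members called higher in endothelial-like cells, where 11.2% of all genes were, and all 9 tested secreted inhibitors and 9 of 11 tested ligands were called lower, where 21.0% of all genes were.

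Fzd9 (chr5:135248938-135251230, minus strand) was a receptor of chondrocyte-like cells, 21.8-fold higher at 20.3 CPM (15.4 in set 1 and 26.5 in set 2), with 75.5% of its UMIs in that population. The next level was 4.08 CPM, in tenocyte-like or ligament cell-like cells. Fzd1 was 4.85-fold higher in osteoblast-like cells at 54.2 CPM (61.1 and 42.3) and 3.07-fold in tenocyte-like or ligament cell-like cells at 34.5 CPM (42.7 and 27.1). Fzd8 was 3.21-fold higher in tenocyte-like or ligament cell-like cells at 29.4 CPM (24.3 and 34.1). Fzd2 was 4.41-fold higher in fibroblast-like cells at 37.4 CPM (31.4 and 43.2) and 2.11-fold in tenocyte-like or ligament cell-like cells at 30.9 CPM. That last call was lost in 5 alternative settings. Fzd5 was 2.92-fold higher in osteoblast-like and 2.22-fold in macrophage-like cells, at 15.1 and 11.5 CPM.

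Fzd7 was 5.33-fold higher in pericyte-like or smooth muscle cell-like cells at 52.9 CPM (40.2 to 68.4), 1 of 2 members called higher there against 9.81% of all genes. Schwann-like cells, the glia of peripheral nerves, had 7 members called higher against 15.7% of all genes. Fzd3, known for axon guidance, was among them at 108 CPM (91.8 and 119), a ratio of 21.8 (17.7 to 26.6). Sfrp1 was 17.1-fold higher there at 258 CPM (357 and 196) and Sfrp5 31.0-fold at 143 CPM (52.5 and 201), but 10 of the 84 cells held 62.8% of the Sfrp1 and 83.6% of the Sfrp5 UMIs. Fzd10os, a transcript and not a receptor, was 49.2-fold higher in skeletal myofibre-like cells at 32.2 CPM (30.7 and 33.2).

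Other receptors of the pathway, from the list of 55 further genes, followed other lines. Ror1 and Ror2, receptors of Wnt5a, were 2.80-fold and 2.86-fold higher in fibroblast-like cells, Ror1 at 104 CPM (set 1) and 115 CPM (set 2), Ror2 at 93.8 CPM over both, and Gpc3, a cell surface proteoglycan that binds Wnt proteins, was 4.58-fold higher at 577 CPM (582 and 572). Ror1 was at 12.4 CPM in osteoblast-like cells, where Wnt5a was about as high as in fibroblast-like cells. Ryk, another Wnt5a receptor, was highest among connective tissue populations in osteoblast-like cells, at 133 CPM and a ratio of 2.25. The R-spondin receptor gene Lgr6 was called higher in chondrocyte-like cells at 22.4 CPM (15.5 and 31.0), and had 11.8 CPM, 3.15-fold higher, in osteoblast-like cells, and Lgr5 was 3.92-fold higher in tenocyte-like or ligament cell-like cells at 20.5 CPM (29.4 and 12.5). Lgr5 and Rspo2 were thus both called higher in tenocyte-like or ligament cell-like cells, and both were higher in set 1.

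Secreted inhibitors outweighed the other roles in each connective tissue population except the synovial lining. Their summed level was 708 CPM in tenocyte-like or ligament cell-like cells (695 to 722), 572 in cluster 1, 485 in chondrocyte-like and 468 CPM in fibroblast-like cells, with 430 in set 1 and 377 in set 2 of osteoblast-like cells. Synovial lining fibroblast-like cells had 64.9 CPM (56.4 to 74.2), with 56.1 in set 1 and 69.3 in set 2, close to the 61.7 CPM of muscle progenitor-like cells. None of the 9 tested inhibitors was called higher in synovial lining fibroblast-like cells and 8 were called lower, where 22.0% of all genes were. The share of cells with an inhibitor UMI after thinning was 55.1% in tenocyte-like or ligament cell-like, 51.6% in chondrocyte-like, 47.8% in osteoblast-like cells, but 12.3% (7.54 to 18.5) of the synovial lining population. Without thinning it was 86.7%, 92.0%, 89.5% and 46.5%. In neutrophil-like cells it was 2.08% thinned and 5.56% unthinned. Synovial lining fibroblast-like cells were the deepest population, with a median of 19031 UMIs, and yet had the lowest inhibitor share of the 5 named connective tissue populations.

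Synovial lining fibroblast-like cells had 3 of 36 members called higher, Rspo2, Fzd6 and Fzd3, against 7.67% of all genes, and 17 called lower, against 22.0%. Their median log2 ratio over the tested members was -1.09, against -0.206 over all genes tested. The Fzd3 call, at a ratio of 2.11 and 11.3 CPM, was lost in 3 alternative settings, 1 of them the omission of set 2.

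Chondrocyte-like cells had 7 members called higher against 8.09% of all genes, and 4 of the 7 were inhibitors. Against all cells outside the class, cluster 3 alone had 8 of 36 members called higher, where 8.10% of all genes were, and cluster 13 alone 6 of 35, where 7.92% were. Frzb (chr2:80411970-80447625, minus strand), an inhibitor known from articular cartilage, was 40.2-fold higher (35.1 to 46.2) at 52.2 CPM, with 45.1 in set 1 and 61.2 in set 2, and 85.0% of its UMIs lay in that population. Wif1 (chr10:121033960-121100650, plus strand) was the most abundant at 328 CPM (257 and 419), a ratio of 11.9, and was 67.8% of the inhibitor UMIs. Notum (chr11:120653788-120661175, minus strand) was 13.2-fold higher at 29.1 CPM (32.9 and 24.3), and Sfrp5 at 27.4 CPM (22.2 and 34.0) had a ratio interval of 11.5 to 14.8. Each of the 4 was high in both sets. Of the other inhibitors 4 were called lower, and over all members 17 were called lower, against 31.1% of all genes, with a median log2 ratio of -0.719 against -0.35 over all genes. Wnt7b was also called higher, 2.61-fold at 1.16 CPM, a call that was lost without either set.

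Tenocyte-like or ligament cell-like cells had 12 members called higher against 6.42% of all genes. Their inhibitors were Wif1 at 276 CPM (220 and 327), 5.64-fold higher, Dkk3, 6.30-fold higher (151 CPM and 149 CPM), and Sfrp2 at 113 CPM (105 and 120), 2.65-fold higher. Wif1 was higher in set 2, and Dkk3 was at nearly the same level in both sets. Dkk3 (chr7:112116017-112159057, minus strand), a member of the Dickkopf family whose action on the pathway is less settled, was higher still in osteoblast-like cells at 171 CPM (198 and 126). Measured against the connective tissue populations alone, 7 members stayed called higher in tenocyte-like or ligament cell-like cells, and all 7 were among the 12.

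Sfrp4, Sfrp2 and Dkk2 were the inhibitors of fibroblast-like cells and cluster 1. Sfrp4 (chr13:19623104-19632994, plus strand), whose loss thins cortical bone, was at 337 CPM in cluster 1 (273 and 393), 4.62-fold higher, and at 193 CPM in fibroblast-like cells (164 and 222), 3.19-fold higher. Sfrp2 (chr3:83766321-83774316, plus strand) was 4.86-fold higher in fibroblast-like cells at 117 CPM (98.8 and 135). Dkk2 (chr3:132085292-132180304, plus strand) was 4.58-fold higher in fibroblast-like cells at 82.5 CPM (59.8 and 104) and 2.59-fold in cluster 1 at 78.8 CPM (65.3 and 90.7). Set 2 was the higher one for Sfrp4, Sfrp2 and Dkk2 in fibroblast-like cells. Sfrp1 was 3.10-fold higher in fibroblast-like cells at 32.8 CPM. Cluster 1 had 4 members called higher, Sfrp4, Wnt11, Dkk2 and Wnt2, against 3.33% of all genes, and only Sfrp4 remained when the other connective tissue populations were the comparison. In 3 other alternative settings 7 or 8 members were called higher in cluster 1. Sfrp4 is also among the genes by which cluster 1 is recognised here, although it took no part in clustering.

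Axin2 (chr11:108920349-108950783, plus strand), whose transcript is widely read as a sign of β-catenin signalling, was low everywhere, with 501 UMIs in all kept cells. Its level was 6.67 CPM in osteoblast-like cells (5.06 to 8.62), with 7.85 in set 1 and 4.67 in set 2, a ratio of 3.12 (2.33 to 4.11). Synovial lining fibroblast-like cells had 4.57 CPM (2.56 to 7.53), tenocyte-like or ligament cell-like cells 4.41 CPM (3.42 to 5.60), fibroblast-like cells 3.15 CPM (2.69 to 3.65), chondrocyte-like cells 2.54 CPM (1.97 to 3.22) and cluster 1 had 1.16 CPM (0.711 to 1.80). The sets differed in the last 2: chondrocyte-like cells had 1.61 CPM in set 1 and 3.71 CPM in set 2, and cluster 1 had 2.12 and 0.327 CPM. In chondrocyte-like cluster 3 the Axin2 UMIs numbered 4 in set 1 and 28 in set 2. The intervals of osteoblast-like, synovial lining and tenocyte-like or ligament cell-like cells overlapped, and no ratio between these populations was computed. Axin2 was 2.04-fold higher in tenocyte-like or ligament cell-like cells, a call that was lost in 8 alternative settings. Among blood cell-like populations, granulocyte progenitor-like cells had 2.25 CPM (1.31 to 3.61).

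Other feedback genes of the pathway were counted from the same list, of which 49 of 55 genes had enough UMIs. Nkd2 and Nkd1, inhibitors that act inside the cell, were 9.33-fold (7.96 to 10.9) and 3.11-fold higher in tenocyte-like or ligament cell-like cells at 17.9 CPM (17.4 and 18.4) and 17.4 CPM (18.2 and 16.6). Apcdd1, an inhibitor at the cell surface, was 2.98-fold higher there. Of 5 tested genes of receptor turnover and feedback, 3 were called higher and 1 lower in tenocyte-like or ligament cell-like cells. In osteoblast-like cells 2 were higher and none lower, while none was higher and 2 were lower in chondrocyte-like cells, and none higher and 3 lower in the synovial lining. Znrf3, the ubiquitin ligase that R-spondins act on, was not called higher in any connective tissue population and reached 41.4 CPM in chondrocyte-like cells, the highest level among them. Tcf7 was 5.29-fold higher in osteoblast-like cells at 14.3 CPM and 2.97-fold in synovial lining fibroblast-like cells, and Lef1 was 2.19-fold higher in chondrocyte-like cells at 29.3 CPM, both being DNA-binding partners of β-catenin. Tcf7l1 and Tcf7l2, of the same family, were 2.07-fold and 2.06-fold higher in fibroblast-like cells at 73.6 and 134 CPM. The core components Ctnnb1, Gsk3b and Csnk1a1 had ratios between 0.837 and 1.48 in the connective tissue populations, and none was called. Over the whole list, higher and lower calls were 12 and 4 in osteoblast-like, 10 and 5 in tenocyte-like or ligament cell-like, 7 and 7 in fibroblast-like, 3 and 11 in chondrocyte-like, 3 and 11 in synovial lining fibroblast-like cells and 1 and 13 in cluster 1, out of 49 each. The shares of all genes called higher and lower were, in the same order, 6.63% and 20.5%, 6.42% and 21.5%, 8.55% and 22.0%, 8.09% and 31.1%, 7.67% and 22.0%, and 3.33% and 31.5%.

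Ligand and receptor transcripts also met in the same cells. After thinning, 13.5% of osteoblast-like (10.1 to 17.5), 13.2% of fibroblast-like and 11.3% of tenocyte-like or ligament cell-like cells had both a ligand UMI and a receptor UMI, against 2.44% of chondrocyte-like (1.70 to 3.40) and 0.107% of neutrophil-like cells. Without thinning the shares were 78.1%, 74.4%, 64.3%, 35.5% and 2.91%. The overlap that separate ligand and receptor shares alone would give is not set beside these values. They are therefore no sign of co-expression beyond the single levels. Doublets were not removed, and their part in these shares was not tested.

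The chondrocyte-like population held 2 clusters with different Wnt genes. Cluster 3 had 880 cells led by Matn1, Snorc and Ucma, and cluster 13 had 519 cells led by Msmp, Cytl1 and Prg4, the gene of the joint lubricant lubricin, which is itself a marker of the synovial lining. Wif1 was at 565 CPM in cluster 13 and 200 CPM in cluster 3, a ratio of 2.82 (2.71 to 2.95) with 2.47 in set 1 and 3.18 in set 2. After thinning, 52.5% of cluster 13 cells (48.1 to 56.9) and 21.9% of cluster 3 cells (19.2 to 24.8) had a Wif1 UMI, and without thinning 83.6% and 52.3%. The same share was 0.267% of neutrophil-like cells after thinning. Frzb went the other way, at 16.3 CPM in cluster 13 and 71.8 CPM in cluster 3, a ratio of 0.228 (0.191 to 0.269), with 3.49% and 12.8% of cells after thinning. Wif1 and Frzb were thus higher in different chondrocyte-like clusters, in both barcode sets.

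Between the clusters, 6 members were called higher in cluster 13 than in cluster 3, where 4.53% of 10470 genes were. Another 6 were called lower, where 6.36% of these genes were. The counts are of the members with at least 100 UMIs in both clusters together, and their share of those was not computed. Dkk3 was 8.36-fold (6.22 to 11.4) and Dkk2 3.37-fold higher in cluster 13, at 26.5 and 7.95 CPM, and the receptors Lrp5, Fzd8 and Fzd6 were 2.5-fold, 2.43-fold and 2.05-fold higher. In cluster 3 the higher members were Sfrp5 at 40.6 CPM against 3.08 CPM, Wnt4 at 40.4 against 4.24 CPM, Wnt5b at 37.8 against 9.65 CPM, Sfrp1 at 27.4 against 7.64 CPM and Sfrp2 at 8.19 against 3.50 CPM. Notum and Fzd9 were not called, at 23.2 against 32.2 CPM and 17.6 against 21.7 CPM. Dkk3, Sfrp5, Wnt4, Wnt5b, Sfrp1 and Sfrp2 reached 100 UMIs through the cluster where they were higher and had fewer in the other. Their calls are therefore not independent of the filter. Both ligands that were called, Wnt4 and Wnt5b, were thus higher in cluster 3, and the Frizzled and Lrp genes that were called were higher in cluster 13. Ligands under 100 UMIs in the 2 clusters together were not compared, and among them Wnt9a, with 57 UMIs in cluster 13 and 20 in cluster 3, went the other way at a ratio of 5.24 (3.10 to 9.21), as did Wnt6, with 14 and 6 UMIs, at 4.29 (1.55 to 13.6). Wnt10b, with 1 and 56 UMIs, was on the side of cluster 3.

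**Figure D3:**
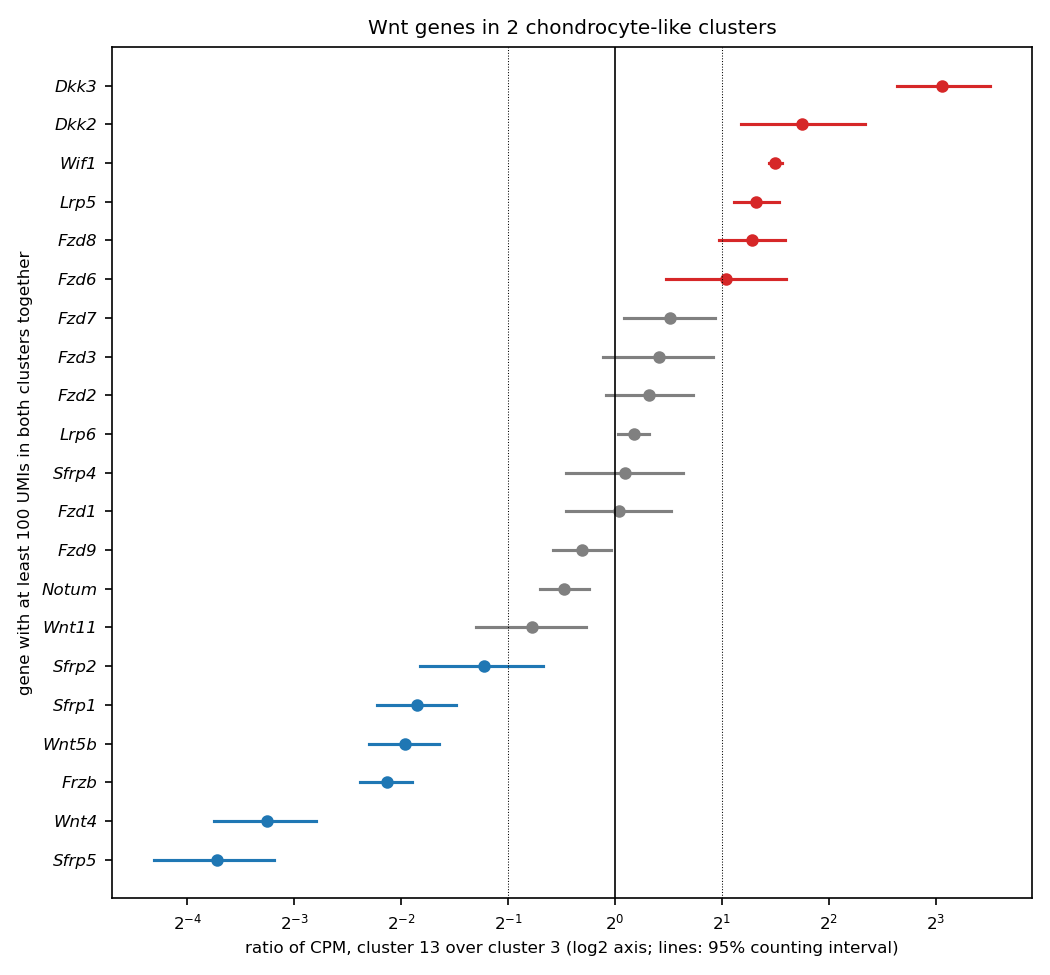
Ratio of the CPM in chondrocyte-like cluster 13 to that in cluster 3 for each member with at least 100 UMIs in both clusters together (log2 axis, lines give 95% counting intervals, dotted lines mark ratios of 0.5 and 2). Red genes were called higher in cluster 13, from Fzd6 at 2.05 to Dkk3 at 8.36, blue genes lower, down to Sfrp5 at 0.0757, and grey genes were not called.

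Fibroblast-like clusters 0 and 2 also differed. Cluster 0 had 1361 cells led by the chemokine, cytokine and acute phase genes Cxcl5, Csf2, Saa3, Ptx3 and Ccl2, and cluster 2 had 916 cells led by Abca8a, Ebf2 and Nova1. Wnt2 was at 98.6 CPM in cluster 0 and 23.1 CPM in cluster 2, a ratio of 4.27 (3.82 to 4.78) with 3.60 in set 1 and 5.17 in set 2, and was the only member called higher in cluster 0, where 12.5% of 11740 genes were. Wnt5a was at 7.56 and 96.8 CPM, a ratio of 0.0781 (0.0673 to 0.0902), and Fzd2 at 6.32 and 88.8 CPM, a ratio of 0.0712 (0.0605 to 0.0833). After thinning, 15.8% of cluster 0 and 3.41% of cluster 2 cells had a Wnt2 UMI, and 1.77% and 17.6% had a Wnt5a UMI. Without thinning the shares were 49.2% and 14.4% for Wnt2 and 12.4% and 61.6% for Wnt5a. In neutrophil-like cells the thinned shares were 0.160% for Wnt2 and 0.0533% for Wnt5a.

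In cluster 0, 16 members were called lower than in cluster 2, where 30.9% of all genes were. A lower level there was thus common among genes at large. The 16 are of the members with at least 100 UMIs in both clusters together, and their share of those was not computed. Besides Wnt5a and Fzd2 they included Sfrp5 with 2 UMIs in cluster 0 and 200 in cluster 2, Rspo1 at a ratio of 0.0743, Wnt9a at 0.136, Fzd8 at 0.188, Fzd6 at 0.196, Dkk3 at 0.283, Dkk2 and Sfrp1 at 0.290 each and Fzd4 at 0.328. Rspo3 did not differ, at 44.4 and 43.4 CPM, and Wnt11 was 1.96-fold higher in cluster 0 (1.73 to 2.22), just under the threshold. Cluster 9 was close to cluster 2 in Wnt9a, at 29.8 and 27.9 CPM, against 3.80 CPM in cluster 0.

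**Figure D4:**
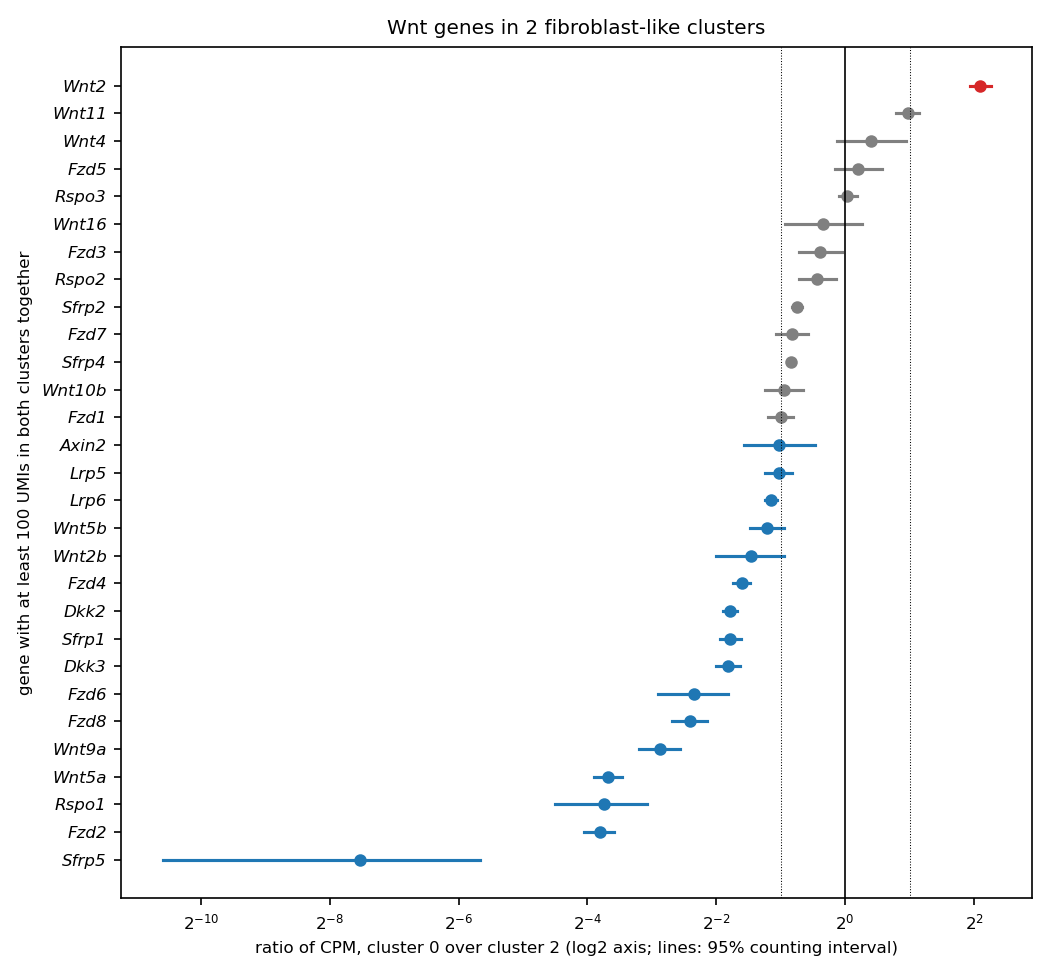
Ratio of the CPM in fibroblast-like cluster 0 to that in cluster 2 for each member with at least 100 UMIs in both clusters together (log2 axis, lines give 95% counting intervals, dotted lines mark ratios of 0.5 and 2). Wnt2 at 4.27 is the only red point, called higher in cluster 0, and blue points run down to Fzd2 at 0.0712, Rspo1, Wnt5a and, at 0.00539, Sfrp5.

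The barcode sets differed in R-spondin levels in some clusters. In cluster 5, the tenocyte-like or ligament cell-like cells, Rspo2 stood at 91.7 CPM (set 1) and 25.5 CPM (set 2), a ratio of 3.59 (3.06 to 4.22). Ratios of set 1 to set 2 were 3.80 (2.91 to 5.02) in cluster 1, 5.64 (3.76 to 8.76) in fibroblast-like cluster 0 and 8.65 (5.22 to 15.4) in the osteoblast-like cluster 17, and 1.09 (0.825 to 1.43) in synovial lining cluster 25, 0.973 (0.709 to 1.33) in fibroblast-like cluster 2 and 1.29 (0.902 to 1.84) in cluster 9. Rspo2 was thus higher in set 1 in 4 clusters and within its counting interval of equality in 3. In cluster 5, 111 of 332 cells of set 1 and 69 of 470 of set 2 had an Rspo2 UMI, and after thinning 13.6% and 3.43%. In cluster 17 the thinned shares were 3.20% and 2.19%, and 1 cell of set 1 held 89 of its 236 UMIs. Without that cell the ratio in cluster 17 was 5.46 (3.25 to 9.80). Rspo3 was 2.10-fold (1.65 to 2.68) higher in set 1 in cluster 5 and 2.38-fold (1.85 to 3.11) in cluster 17, and Rspo1 2.77-fold in cluster 2. Each of these 3 fell under a ratio of 2 without the 1 cell of set 1 that held most UMIs of the gene: Rspo3 to 1.93 (1.51 to 2.48) in cluster 5 and to 1.74 (1.33 to 2.28) in cluster 17, where that cell held 85 of 309 UMIs, and Rspo1 to 1.87 (1.26 to 2.79), where it held 34 of 100. The Rspo2 ratios above 2 in clusters 0, 1 and 5 stayed above it, at 4.99, 3.38 and 3.30. The genotype and library of a set are unknown, so these values describe 2 sets of cells, and genotype and experiment cannot be told apart here.

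**Figure D5:**
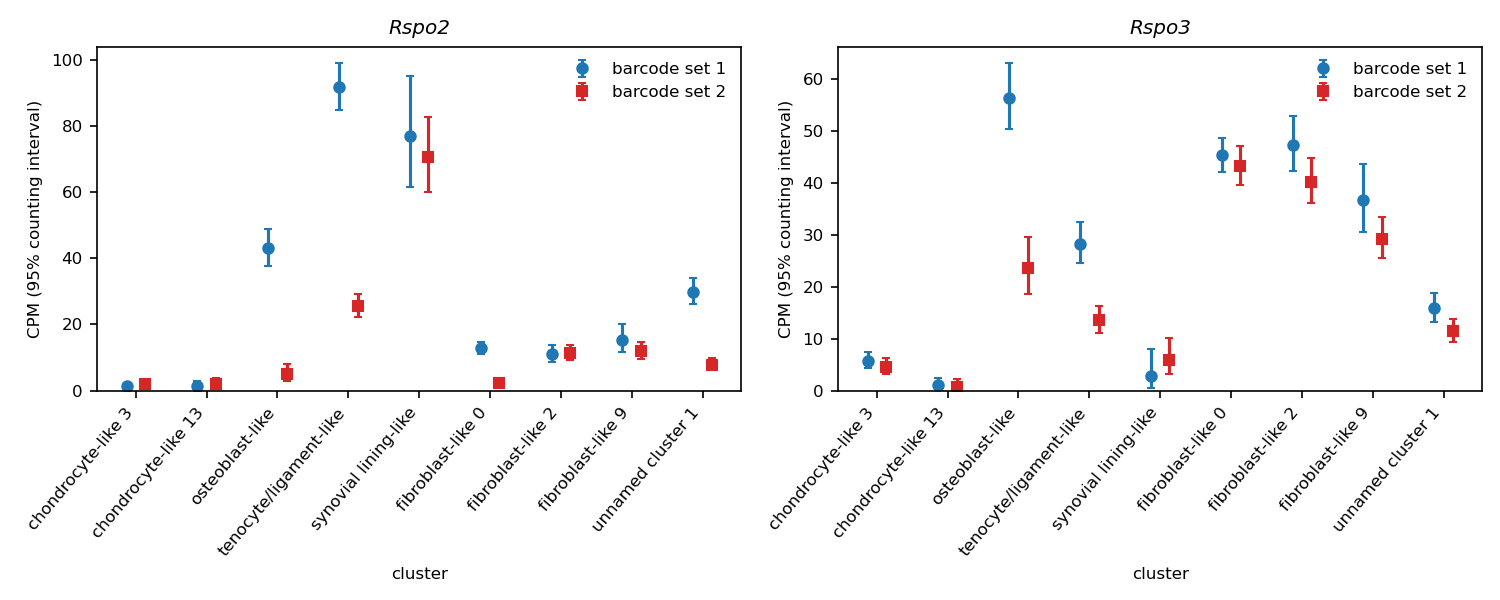
CPM of Rspo2 and Rspo3 (panels) in barcode set 1 (blue circles) and set 2 (red squares) of each connective tissue cluster, with 95% counting intervals. In the tenocyte-like or ligament cell-like cluster Rspo2 is at 91.7 CPM (set 1) and 25.5 CPM (set 2), in the synovial lining cluster at 76.9 and 70.7 CPM.

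Other members passed a ratio of 2 between sets in clusters 0, 3, 5, 13 and 17. Together with the R-spondins this made 14 ratios. Several of these genes reached 100 UMIs in the cluster through the set where they were higher and had fewer in the other. Examples are Rspo2 in cluster 17, with 236 and 16 UMIs, and in cluster 0, with 208 and 27. Such ratios are not independent of the filter. The share of compared members past a ratio of 2 was not computed for each cluster. Sfrp1 was 2.02-fold higher in set 1 in cluster 5 and Sfrp2 2.20-fold in cluster 17. Without the 1 cell with most UMIs they were at 1.76 (1.25 to 2.49) and 1.32 (0.874 to 2.02), a single cell holding 53 of the 131 Sfrp2 UMIs of set 1 in cluster 17. Higher in set 2 were Dkk2 at 2.51-fold and Wnt10b at 2.63-fold in cluster 0, Wnt11 at 2.09-fold and Fzd2 at 2.74-fold in cluster 3, and Fzd9 at 2.25-fold in cluster 13. Of these, Wnt11 fell to 1.74 (1.19 to 2.55) without its top cell, and the other 4 stayed above 2. The share of all genes past that ratio in either direction was 2.99% in cluster 0, 1.76% in cluster 2, 2.26% in cluster 9, 2.09% in cluster 1, 7.03% in cluster 3, 5.22% in cluster 13, 3.90% in cluster 17, 3.21% in cluster 5 and 3.26% in cluster 25. No member with at least 100 UMIs in the cluster passed it in cluster 9 or cluster 25. Members under 100 UMIs in a cluster were not compared, and some of them had ratios past 2. In cluster 9, set 1 was higher for Rspo1, with 47 and 23 UMIs, at 4.44 (2.64 to 7.66), and for Frzb and Wnt6. In cluster 25, set 1 was higher for Sfrp2, with 20 and 7 UMIs, at 5.63 (2.29 to 15.8). Set 2 was higher there for Dkk2, with 10 and 43 UMIs, at 2.18 (1.08 to 4.87).

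Several members overlap other annotated genes (GENCODE M21, mm10), and no source used here gives the strand setting of the counting. On the opposite strand lie Fbxl14 at Wnt5b, Gm2670 at Wnt5a, Gm29539 at Wnt6, AU022754 at Wnt7b, Gm12930 at Rspo1, Gm48159 at Rspo3, Gm26771 at Sfrp2, Gm26704 at Fzd6, Myadml2os and Notumos at Notum and Gm11670 at Axin2. Reads of these pairs may not have been told apart.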

How the data were processed

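The deposited values are raw UMI counts per gene and cell, not normalised, which the authors made with Cell Ranger 7.0.0 from libraries of the 10x Genomics 3′ v3 chemistry, per the labels' protocols. Per the submitters' processing notes, reads were placed on mm10. No source used here says if intronic reads were included.

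The matrix was treated as 1 sample. The planned value of each genotype was not computed, because no file or label maps cells to a genotype. After scaling each cell to 10000 counts and taking logs, 2000 variable genes, 30 components (rounded to 4 decimals), 15 neighbours and Leiden clustering at resolution 1 with seed 1 (scanpy 1.11.5, leidenalg 0.10.2) gave 30 clusters. The Wnt genes, the 55 pathway genes and mitochondrial, ribosomal protein and sex-linked genes, 221 in all, took no part in clustering. A cluster was named for the class with the highest mean marker log2 fold where the median reached 1 and 3 or more markers found in 10% of the cells reached 1 themselves (prior 10 CPM). Because the top 10 genes of cluster 9 and of cluster 13 each held a synovial marker (Has1, Prg4), the barcode sets were compared by cluster number.

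Scrublet's own calls marked 0.0419% of set 1 and 0.0125% of set 2 cells, too few for the caller to have worked, so no doublets were removed; leaving out the top 5% of scores was an alternative. Ratios have exact conditional binomial 95% intervals, and shares were taken after thinning cells to 2000 UMIs, leaving out shallower cells (7 chondrocyte-like, 5 osteoblast-like and 121 neutrophil-like). Ratio calls were tried on simulated Poisson counts, which hold counting error alone, as the intervals do. This check does not cover UMIs concentrated in few cells. Coordinates are from GENCODE M21, in which all 50 members were found, and promoter windows from RefSeq for 31 members. Members and lists were chosen with earlier results of these data known. All members are accounted for, and of the pathway list those named are the 3 highest per role in connective tissue; others named (Ror2, Lgr5, Lgr6, Apcdd1, Tcf7, Lef1) were picked after their values were seen. Alternatives changed the cell filter, the clustering, the naming rule, the UMI minimum, the ratio, the comparison cells and the barcode sets. Counts without cluster 9 and for clusters 3 and 13 alone were added after the data were seen.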

Additional observations from a re-analysis of the deposited data

How the results depend on the processing

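Of 886 recomputed calls, 828 were kept, 57 were lost and 1 reversed: with other populations weighted equally, the log2 ratio of Wnt6 in fibroblast-like cells was -0.0497. A minimum of 10 UMIs and a ratio of 1.5 are looser than the rule and could lose no call, and each kept 65 of 65. At resolution 0.5, where no osteoblast-like cluster was named, 54 calls were recomputed, and against connective tissue populations only 52 were. Calls that were not recomputed count neither as kept nor as lost. The total of kept calls thus includes calls that were not put to a test. The number of members called higher moved by over 1.5 times in 5 populations. In muscle progenitor-like cells 1 became 3 with at least 1000 genes and 2000 UMIs, 3 with at most 5% mitochondrial UMIs, 2 with clustering seed 5, 2 at a minimum of 10 UMIs, 4 at a ratio of 1.5, and 2 to 3 when a barcode set was left out. In cluster 1, 4 became 8 with at most 5% mitochondrial UMIs, 8 at a ratio of 1.5, 7 with populations weighted equally and 1 against connective tissue populations only. At a ratio of 1.5, synovial lining fibroblast-like cells had 6 instead of 3 and pericyte-like or smooth muscle cell-like cells 4 instead of 2, the latter also 4 with equal weights. Against connective tissue populations only, tenocyte-like or ligament cell-like cells had 7 instead of 12. The cause of these shifts was not tested.

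No osteoblast-like cluster was named at resolution 0.5. The best match of cluster 1 in 7 other clusterings shared 0.363 to 0.585 of the joint cells (Jaccard index). Of the 7 matches, 5 were named fibroblast-like. This index was computed for no other cluster, so its stability was not ranked. Leaving out the 1 cell with most UMIs of the gene, an alternative chosen after seeing the data, took 6 of 14 ratios between barcode sets under 2. No paired analysis was possible because the barcode sets carry no replicate number and no test was run. Counting depth leaves 14 members without comparison, and intervals do not cover the concentration of UMIs in few cells.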
